A study of Mus musculus with 76 samples.

Results

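The respiratory chain genes were taken from the count table of a Patch-seq study of single hippocampal neurons by their names: the mitochondrially encoded subunits (mt-Nd, mt-Co, mt-Cytb and mt-Atp) and the nuclear genes named Nduf, Sdh, Uqcr, Cox4 to Cox8 and Atp5. The rule gave 109 of 35825 genes, 13 of them encoded in mitochondrial DNA and 96 in the nucleus, and 9 further rows whose names fit a pattern were left out by the rule. By complex, the nuclear genes comprised 39 of complex I, 4 of complex II, 8 of complex III, 20 of complex IV, 17 of complex V (ATP synthase and 1 related factor) and 8 assembly factors of complex I. The mitochondrial genes comprised 7 of complex I, 1 of complex III, 3 of complex IV and 2 of complex V. In Patch-seq the contents of a recorded cell are drawn into the pipette and sequenced, so that each library is 1 cell.

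The cells were tdTomato-positive interneurons of the medial ganglionic eminence lineage in the pyramidal layer of dorsal CA1, taken from untreated mouse pups at postnatal day 4. All groups shared an Nkx2.1 Cre: Ai14 TdT background, in which Cre under Nkx2.1 switches on the reporter in this lineage, and they differed in gephyrin, the scaffold protein of inhibitory synapses: GPHN S268/270A (called Mut), in which serines are replaced by alanine, or GPHN WT. The Mut cells were 19 from females and 15 from males, and the WT cells 9 from females and 19 from males, after the authors' filter and without a contamination mark. A further 5 WT cells, 1 female and 4 male, were marked as contaminated, and 9 cells (4 Mut female, 4 Mut male and 1 WT male) had been left out by the authors; these were described apart. As the labels name no animal, cells do not stand for replicates here, and the cells of a genotype and sex were added up to 1 library. The sums held 117701978 counts in Mut females, 112199211 in Mut males, 61543250 in WT females and 120682303 in WT males, and a cell held 2946456 to 12070780. Among 62 cells, 57 carried Lhx6 and 58 Gad1, markers of these interneurons, at 10 CPM (counts scaled to a common library total) or more. Other markers of these interneurons were found in fewer cells, Gad2 in 48, Slc32a1 in 23 and Nkx2-1 in 11. Neurod6 and Slc17a7, genes of pyramidal neurons, were carried by 31 and 22 cells. Cells are numbered within their group in the order of the samples, and no pair of cells held identical values.

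The respiratory chain passes electrons from NADH (complex I) and succinate (complex II) through complex III to complex IV, where oxygen is reduced, and the proton gradient so built drives ATP synthase (complex V). Complexes I, III, IV and V combine core subunits made from mitochondrial DNA with subunits made from nuclear genes and imported, whereas complex II is wholly nuclear. The mitochondrial genome is copied into long polycistronic RNAs from each strand, which are cut into single messengers, while nuclear genes are transcribed one by one, many of them under NRF1, GABPA, YY1 and the estrogen-related receptors. In neurons this pathway supplies most of the ATP for ion pumping and synaptic transmission.

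Mitochondrial messengers were among the highest of the set, and their levels, compared per length as TPM (a length-scaled abundance from the authors' normalized table, averaged within each group and then over the 4 groups), spanned a wide range. mt-Co3, a core subunit of cytochrome oxidase, stood highest at 7399 TPM, followed by mt-Atp6, the proton channel subunit of ATP synthase, at 6881 TPM. mt-Co2 stood at 3862, mt-Cytb, the cytochrome b of complex III, at 3033, mt-Nd1 at 2806, mt-Atp8 at 2419 and mt-Co1 at 1751 TPM. The other complex I genes of the heavy-strand transcript were lower, with mt-Nd3 at 1069, mt-Nd2 at 989, mt-Nd4 at 814, mt-Nd5 at 292 and mt-Nd4l at 271 TPM. mt-Nd6, the only protein gene of the opposite strand, stood at 597 TPM. Its reads and antisense reads of the heavy-strand precursor cannot be told apart, because Nextera XT libraries do not mark strand.

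Each mitochondrial gene is a single exon of the circular genome, and several adjoin or overlap. In the GRCm38 annotation (GENCODE M21) mt-Atp8 lies at chrM:7766-7969 and mt-Atp6 at chrM:7927-8607, mt-Nd4l at chrM:9877-10173 and mt-Nd4 at chrM:10167-11544, all on the plus strand. mt-Nd5 at chrM:11742-13565 on the plus strand overlaps the end of mt-Nd6 at chrM:13552-14070 on the minus strand. Reads in these overlaps were divided between the genes by the authors' estimation, so the split within each of these pairs is uncertain.

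Among nuclear members the highest level was that of Atp5b, the catalytic beta subunit of ATP synthase, at 2996 TPM, followed by Cox6c at 2519 and Cox8a at 2255 TPM, small membrane subunits of cytochrome oxidase. The median nuclear member stood at 569.7 TPM and the median mitochondrial member at 1751 TPM. That median is the value of mt-Co1, whose level and rank are uncertain. A nuclear copy of it was given 35.9% of the counts of the pair, as described below. Within complex I the small accessory subunits Ndufb8 (1358 TPM), Ndufa11 (1281 TPM) and Ndufs5 (1118 TPM) led, while the 7 nuclear core subunits, which form the arm that oxidizes NADH, were lower, between 90.2 TPM for Ndufs1 and 500.5 TPM for Ndufs7. The 29 accessory subunits had a median of 631 TPM.

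Complex II had the lowest median of the 5 complexes, 263 TPM. Sdhb, its iron-sulfur subunit, stood at 568.2 TPM and Sdhd, a membrane anchor, at 416 TPM, against 111 TPM for Sdha, the flavoprotein that oxidizes succinate, and 95.97 TPM for Sdhc, the other anchor. In complex III the small subunits Uqcr11 (1662 TPM), Uqcr10 (1419 TPM) and Uqcrq (1333 TPM) exceeded the core-fold proteins Uqcrc1 (571 TPM) and Uqcrc2 (160 TPM) and the Rieske iron-sulfur protein Uqcrfs1 (325 TPM). In complex V, among the 3 paralogs for the ring subunit, Atp5g1 (1652 TPM) and Atp5g3 (1347 TPM) exceeded Atp5g2 (188 TPM). Atp5e, the epsilon subunit, stood at 1359 TPM. Atp5a1, the alpha subunit, stood at 771 TPM and Atp5c1, the rotating gamma subunit, at 936 TPM. The 8 assembly factors, which build complex I without remaining in it, had levels of 15.2 to 143 TPM with a median of 58.3 TPM.

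**Figure D1:**
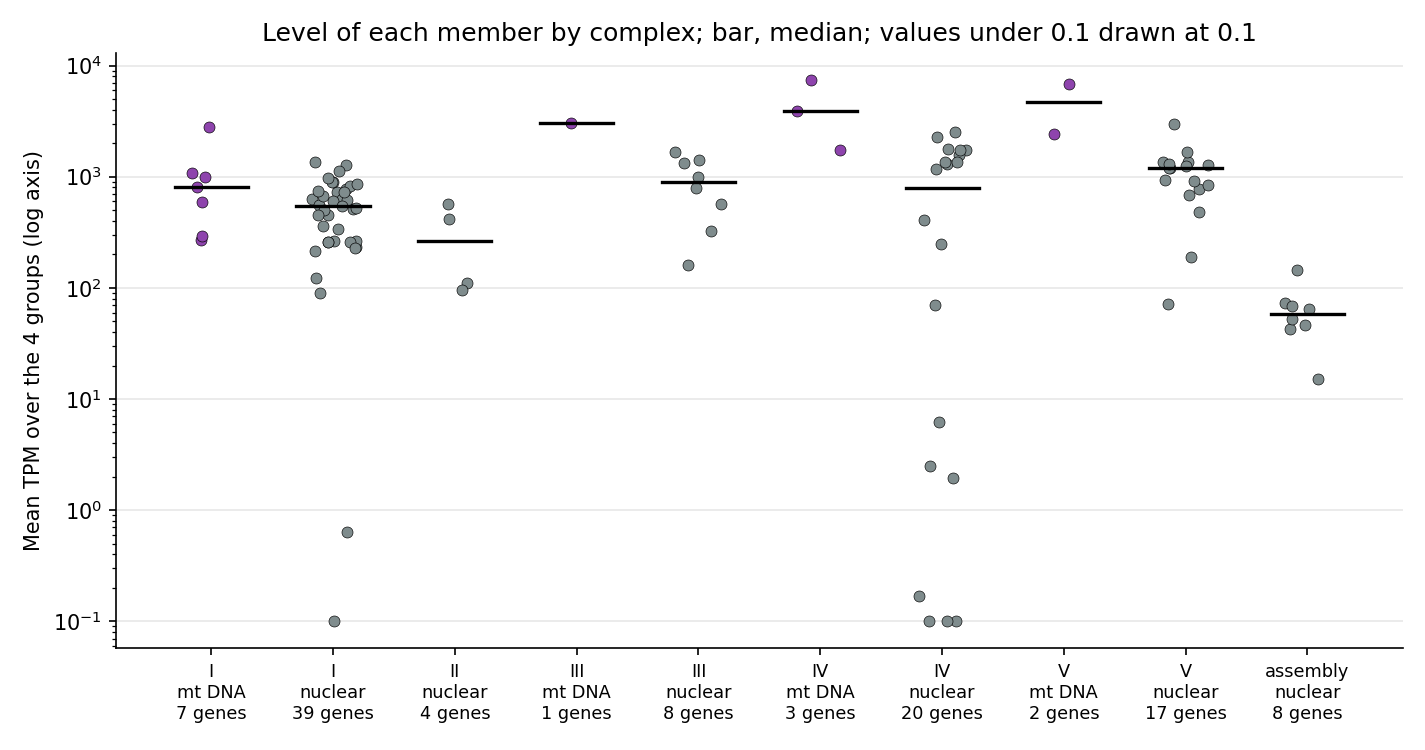
Mean TPM of each member over the 4 groups, on a log axis, by complex and by genome of origin, with each group's median as a bar. The mitochondrial members of complexes III, IV and V lie between 1751 and 7399 TPM, the assembly factors lie under most subunits, and the lowest points of complexes I and IV are tissue-restricted isoforms and gene copies.

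Cytochrome oxidase has subunits with paralogs used in muscle, lung, testis or under low oxygen, and these neurons carried the widespread form of each pair compared here. Cox6a2, the paralog of Cox6a1, was left out by the rule and was not examined. Cox4i1 stood at 1744 TPM and reached 10 CPM in 60 of 62 cells, against 2.51 TPM and 2 cells for Cox4i2, the lung form. Cox7a2 stood at 1177 TPM in 59 cells, against 6.15 TPM and 1 cell for Cox7a1, the form of heart and muscle. Cox6b1 stood at 1788 TPM in 61 cells, against 69.9 TPM and 4 cells for Cox6b2, the testis form. Cox8a reached 10 CPM in all 62 cells and Cox7b in 56, while Cox7b2, Cox8b and Cox8c reached it in 0 of 62. If cells were independent draws, a true share of cells as high as 4.84% could give this result. As cells may share animals, the true share could be higher than that. Cox7a2l, a factor that joins complexes III and IV, stood at 249 TPM in 44 cells.

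Each rare form came from 1 to 4 cells, not all of which carried Lhx6. Ndufa4l2, the paralog of Ndufa4 that hypoxia induces in other cells, appeared in Mut female cells 16 and 21 at 43.2 and 28.4 CPM, with Lhx6 at 671 and 447 CPM there. Cox7a1 appeared in Mut male cell 2 at 51.4 CPM, with Lhx6 at 496 CPM. Cox6b2 stood at 460 CPM in WT female cell 7 and at 152 CPM in WT female cell 3, against 60.0 CPM in Mut male cell 1 and 32.7 CPM in Mut female cell 5. Cox4i2 appeared in Mut female cells 2 and 5 at 45.5 and 42.8 CPM, and cell 2 carried Lhx6 at 2.57 CPM. WT female cell 7, the highest in Cox6b2, had Lhx6 at 2.67 CPM, with Gad1 at 739 CPM. Mut female cells 2 and 5 and Mut male cell 1 also carried 10, 9 and 10 of the 12 markers of astrocytes and radial glia.

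Detection differed by role as well. At 10 CPM, 6 of the 13 mitochondrial members were found in all 62 cells and 12 in 50 or more. Of the 96 nuclear members, 6 were found in all cells (Atp5a1, Atp5b, Atp5l, Cox6c, Cox8a and Ndufb8), 60 in 50 or more, 10 in fewer than 10 cells and 6 in none. The assembly factors reached the limit in 11 to 33 cells each.

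Nuclear DNA holds copies of mitochondrial genes, and reads from such copies and from the mitochondrion can be exchanged by the counting. A comparison of the 13 genes with all GENCODE M21 transcripts found 15 rows at least 90% identical over 150 bases or more, 7 of them over 99% identical and all of these 7 in a cluster on chromosome 1 that begins at base 24611535. Of these, 5 matched mt-Nd4, mt-Co3, mt-Co2, mt-Atp6 and mt-Nd4l at every aligned base. Their rows held little: Gm10925, the copy of mt-Atp6, had 1.67% of the counts of the pair, and Gm28437, the copy of mt-Co3, had 0.907%. Gm29216 was different, with 35.9% of the counts it shared with mt-Co1. It was found in all 62 cells, at a median of 844 CPM against 1447 CPM for mt-Co1.

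Gm29216 (492 bases) repeats the last 479 of the 1545 bases of mt-Co1 (positions 1067 to 1545) without a difference and differs from it at 6 positions just before. The stretches are printed because they hold all the bases by which reads of the copy can be told from mt-Co1; capitals mark the differing bases, at T1056A, C1057T, A1059G, A1060G, C1062A and A1066T, counted from the start of mt-Co1 with the base of mt-Co1 first. They are the GENCODE M21 sequences of chrM:6381-6420 on the plus strand and chr1:24616158-24616197 on the minus strand of GRCm38.
mt-Co1: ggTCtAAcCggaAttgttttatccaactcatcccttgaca
Gm29216: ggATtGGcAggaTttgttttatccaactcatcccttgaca

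Because most of the copy cannot be separated from mt-Co1, the sum of the pair is the firmer quantity. It had a lowest, median and highest value over cells of 406, 2491 and 15457 CPM in Mut females and 374, 2088 and 6057 CPM in WT females, and of 48.8, 2300.1 and 5581 CPM in Mut males and 649, 2768 and 9363 CPM in WT males. The ranges overlapped in each sex. The share of the pair given to Gm29216 had a median of 39.3% in Mut females, 35.6% in Mut males, 29.0% in WT females and 36.4% in WT males. In 1 Mut female cell it reached 91.7%. The CPM of Gm29216 followed that of the summed mitochondrial members over the 62 cells (Pearson r 0.82, Spearman rho 0.83).

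The nuclear members lie on 19 chromosomes, with at most 9 on any of them. RefSeq's promoter table (GRCm38.p6) held 79 windows, 250 bases before to 50 after the start, for 74 of the nuclear members; for 66 of the 79 the bases after the start lay in a transcript of the gene on its strand. The NRF1 motif, whose 10 letters with 1 free position stand in capitals in the first 2 stretches below, was found on either strand in 25.3% of these windows, against 4.60% of 32851 windows of all genes. The GABPA motif CCGGAAG was found in 22.8% against 8.86%, the YY1 motif in 7.59% against 0.852%, and the ESRRA motif TCAAGGTCA in 2.53% against 0.423%. At least 1 of the motifs was found in 46.8% of the members' windows and 13.5% of all windows, and in no window did different motifs overlap. A match is a string in a window, not a measured binding site. The stretches below show such matches (capitals) upstream of an abundant member of 4 complexes; they are printed 5′ to 3′ on the gene's strand, where the last 2 hold the motif in the reverse orientation. They are, in order, the NRF1 motif at chr17:56717677-56717736 on the plus strand and chr5:115349041-115349100 on the minus strand, the GABPA motif at chr10:80406856-80406912 on the minus strand and chr2:174464172-174464228 on the minus strand, and the ESRRA motif at chr2:73911345-73911403 on the minus strand.
Ndufa11: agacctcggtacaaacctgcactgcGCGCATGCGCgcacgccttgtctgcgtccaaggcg
Cox6a1: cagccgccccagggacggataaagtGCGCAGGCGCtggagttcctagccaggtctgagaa
Uqcr11: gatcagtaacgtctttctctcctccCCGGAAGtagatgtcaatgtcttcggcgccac
Atp5e: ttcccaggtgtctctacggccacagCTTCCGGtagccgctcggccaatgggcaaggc
Atp5g3: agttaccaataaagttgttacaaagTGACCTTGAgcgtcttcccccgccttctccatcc

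The mitochondrial part varied far more from cell to cell than the nuclear part. Over the 62 cells the 13 mitochondrial members summed to between 660 and 55476 CPM with a median of 12202 CPM, an 84.1-fold range, and the 96 nuclear members to between 9390 and 46343 CPM with a median of 24756 CPM, a 4.94-fold range. The coefficient of variation was 72.2% for the mitochondrial sum and 28.8% for the nuclear sum. The 13 nuclear members of highest CPM, summed in the same way, had a coefficient of 30.5%. Gene by gene the parts were closer, with a median coefficient of 86.3% over the 12 mitochondrial and 74.1% over the 75 nuclear members at 100 CPM or more, and 111% over all 2189 genes at that level.

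The mitochondrial members varied together over cells. The median Spearman rho over their pairs was 0.64, with a range of 0.25 to 0.91, against 0.17 over pairs of the 75 nuclear members and 0.05 over pairs of all 2189 genes at 100 CPM or more. mt-Nd6, from the opposite strand, had a median rho of 0.58 with the other 12. Mitochondrial with nuclear members had a median rho of 0.16. These are descriptions over 62 cells that share library preparation and a common denominator within each cell.

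**Figure D2:**
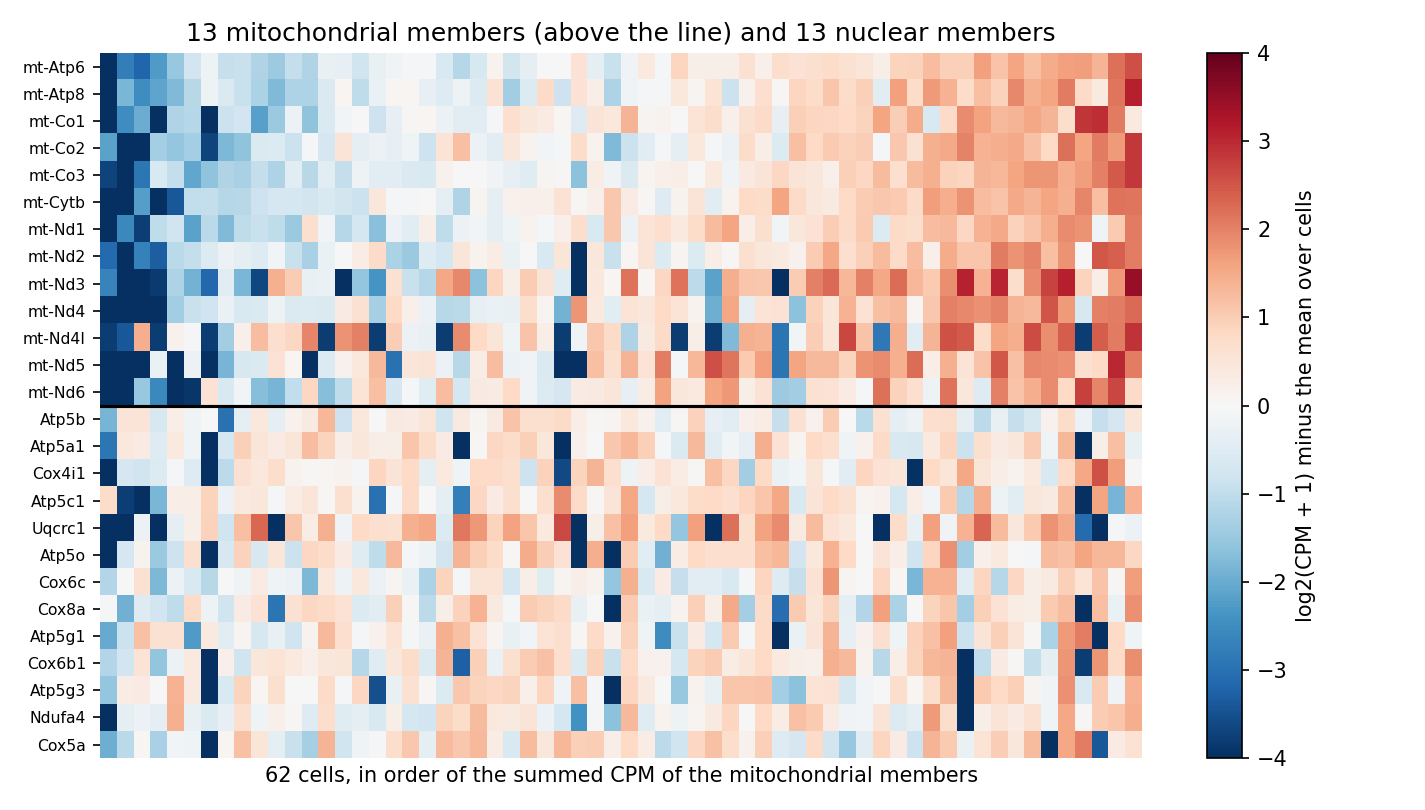
Each column is 1 of the 62 cells, ordered by the summed CPM of the mitochondrial members, and colour gives log2(CPM + 1) minus the gene's mean over cells, for the 13 mitochondrial members above the line and the 13 nuclear members of highest mean CPM below it. The gradient from left to right above the line follows in part from the ordering; below the line single cells lacking single genes stand out in place of a common gradient.

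The lowest mitochondrial sums were those of Mut male cell 5 (660 CPM), Mut female cell 11 (842 CPM) and WT female cell 3 (1485 CPM), and the highest that of Mut male cell 8 (55476 CPM). Mut male cell 5 also had the lowest nuclear sum, 9390 CPM, with 36 nuclear members at 10 CPM or more, whereas Mut female cell 11 had a nuclear sum of 20779 CPM with 66 members at that limit. The sums of the parts were related over the 62 cells (Pearson r 0.54, Spearman rho 0.42), and r was 0.44 without the 2 cells farthest from the median. Within groups r was 0.46 in Mut females, 0.80 in Mut males, 0.55 in WT females and 0.19 in WT males. Without the 2 farthest cells of each group these values were 0.27, 0.51, 0.81 and 0.15, so the order of the groups rested on single cells. With the total counts of a cell the mitochondrial sum had r 0.03, and with the number of genes with a count r −0.02. In Mut females it had r 0.58 with the summed pyramidal markers and r −0.49 with the interneuron markers; over all cells these values were 0.19 and −0.19. With the 12 markers of astrocytes and radial glia r was 0.32 over all cells (rho 0.32), 0.53 in Mut females and 0.48 in Mut males, against 0.07 in WT females and −0.10 in WT males. The part of these markers in the spread was not tested.

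Shares of the mitochondrial TPM were taken messenger by messenger, and the medians of the 2 leading ones lay close in the 4 groups. mt-Co3 took a median of 22.2% of the mitochondrial TPM in Mut females and 22.1% in Mut males, against 22.7% in WT females and 23.5% in WT males. mt-Atp6 took 20.7% in Mut females and 22.8% in Mut males, against 20.9% in WT females and 19.7% in WT males. mt-Cytb took 8.15% in Mut female and 7.92% in Mut male cells, against 11.1% in WT female and 10.4% in WT male cells. In single cells the shares ran far more widely, from 4.40% to 46.3% for mt-Co3, from 0.881% to 19.5% for mt-Cytb and from 0.0156% to 3.17% for mt-Nd5. mt-Nd3 and mt-Nd4l took from 0% to 10.9% and from 0% to 10.5%.

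The comparison of genotypes asked whether Mut interneurons differed in respiratory chain transcripts, and no member passed the test. In Mut females the mitochondrial sums of the 19 cells had a lowest, median and highest value of 842, 13693 and 38841 CPM, against 1485, 11647 and 29606 CPM in the 9 WT female cells. In Mut males the 15 cells had 660, 10806 and 55476 CPM, against 5084, 12446 and 47121 CPM in the 19 WT male cells. The groups overlapped over most of their range in each sex. The nuclear sums were 15873, 25721 and 38795 CPM in Mut females against 16950, 24631 and 39956 CPM in WT females, and 9390, 25051 and 46343 CPM in Mut males against 17486, 23688 and 42667 CPM in WT males. These groups overlapped as well.

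**Figure D3:**
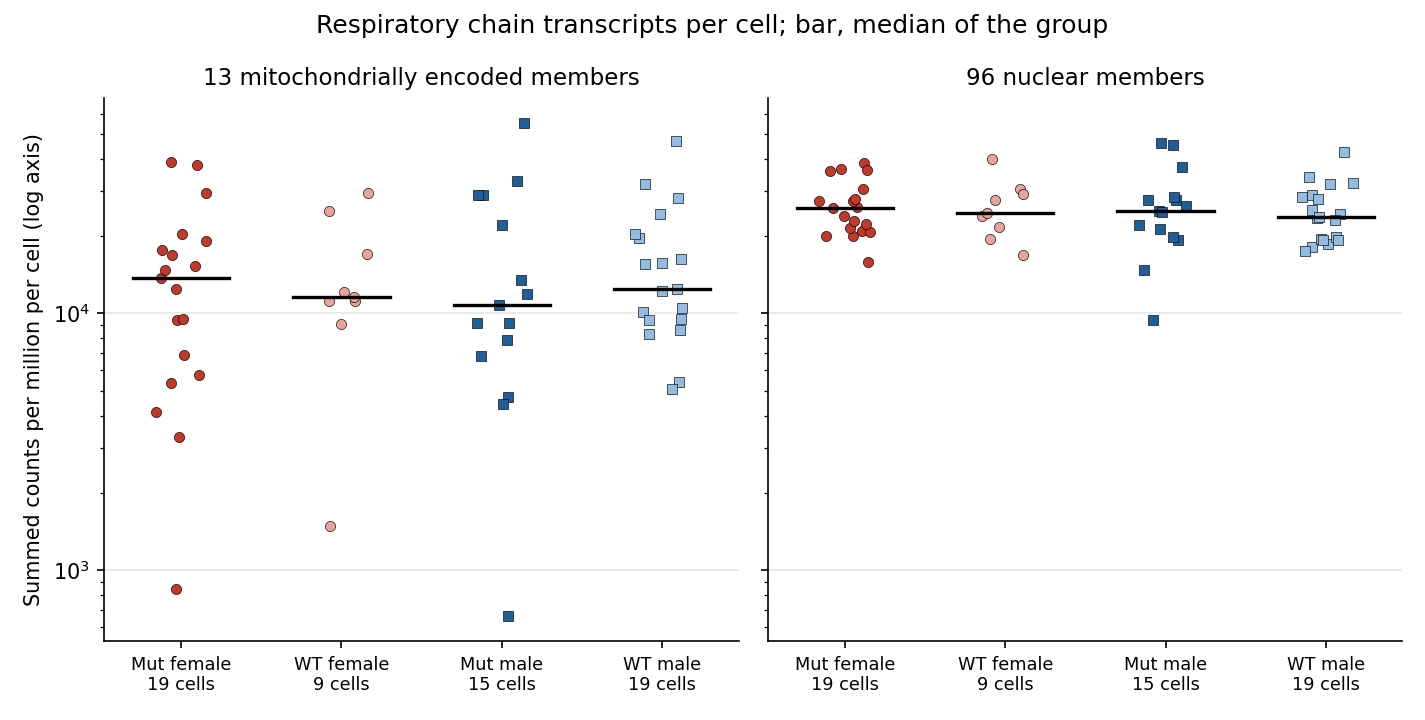
Summed CPM per cell of the 13 mitochondrial members (left) and the 96 nuclear members (right) on a common log axis, 1 point a cell, with a bar at each group's median. The nuclear medians lie between 23688 and 25721 CPM in the 4 groups, and the mitochondrial values spread over a wider range in each group.

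As summed libraries, mitochondrial members made up 1.40% of counts in Mut females (exact binomial 95% interval 1.399 to 1.404) and 1.48% in WT females, and 1.64% in Mut males and 1.599% in WT males. Nuclear members made up 2.66% in Mut females and 2.74% in WT females, and 2.76% in Mut males and 2.55% in WT males. After TMM scaling, which corrects library totals for composition, the log2 ratio of Mut over WT was −0.35 for mitochondrial and −0.31 for nuclear members in females, and 0.13 and 0.21 in males. As means over cells of CPM without TMM scaling, the female values were 0.06 for the mitochondrial and 0.02 for the nuclear sum. These means change both the scaling and the weight of cells. Most of the move came with the scaling, whose TMM factors were 1.04 for Mut and 0.865 for WT females. The male mitochondrial value was −0.10 without Mut male cell 8. With 1 sum a group there is no test of these ratios, and the intervals cover counting error only.

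**Figure D4:**
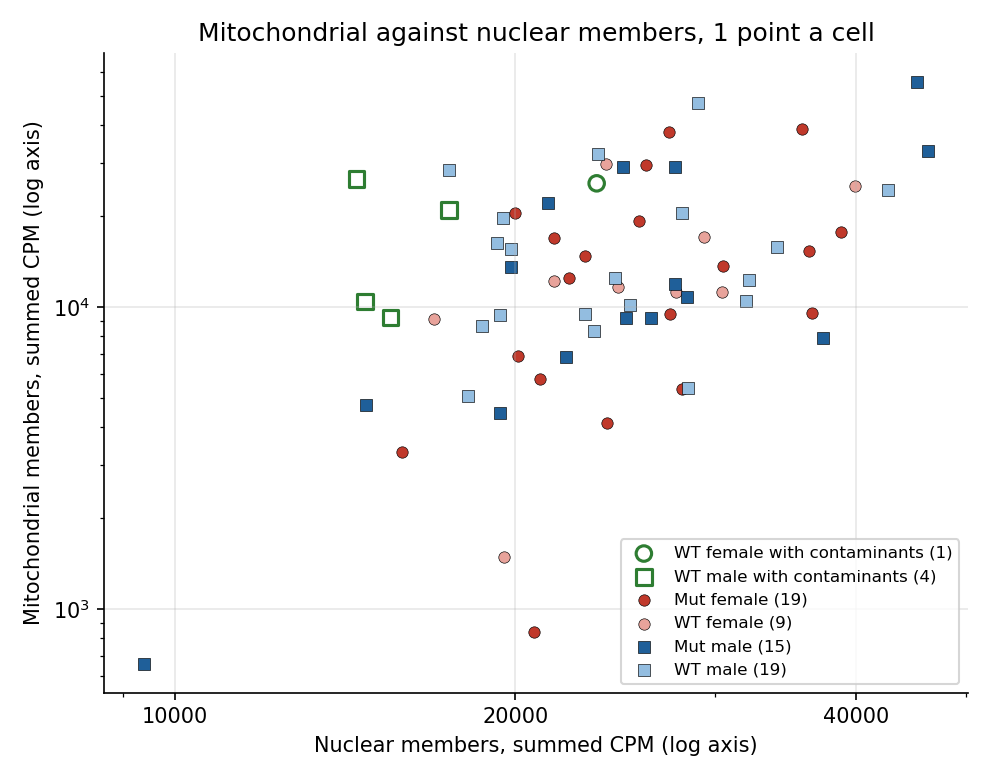
Summed CPM of the mitochondrial members against that of the nuclear members, both on log axes, 1 point a cell, with the WT cells marked as contaminated drawn as open green symbols. Mut and WT cells are intermixed, and the 4 contaminated WT male cells lie to the left of all 19 clean WT male cells, the nearest at 17483 against 17486 CPM.

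Mitochondrial counts per nuclear count were 0.527 in the Mut female sum and 0.541 in the WT female sum, and 0.594 in the Mut male sum and 0.626 in the WT male sum. Over cells the ratio had a median of 0.427 in the 34 Mut cells, with a range of 0.0405 to 1.39, and of 0.497 in the 28 WT cells, with a range of 0.0759 to 1.62. The medians lay much closer to each other than the cells within either genotype.

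After TMM scaling, the nuclear subunits of all 5 complexes had ratios under 1 in females and above 1 in males. The female direction depended on the scaling. As a share of all counts, nuclear complex I held 0.830% in Mut females against 0.753% in WT females, and complex II 0.120% against 0.113%. Nuclear complexes III, IV and V stayed lower in Mut females. Of the mitochondrial subunits, only those of complex IV had a higher share in Mut females, 0.634% against 0.591%. In females the log2 ratio of Mut over WT was −0.12 for complex I, −0.19 for complex II, −0.37 for complex III, −0.28 for complex IV and −0.47 for complex V. In males the same complexes stood at 0.24, 0.26, 0.23, 0.23 and 0.15. Without WT female cell 1 the female values of complexes I and II were 0.02 and 0.08. For the mitochondrial subunits the female values were −0.44 in complex I, −0.73 in complex III, −0.16 in complex IV and −0.31 in complex V, and the male values 0.21, −0.17, 0.09 and 0.37. The female value of complex IV was 0.03 without WT female cell 1, and the male values of complexes I and IV were −0.03 without Mut male cell 6 and −0.17 without Mut male cell 8. The assembly factors stood at −0.41 in females and 0.46 in males, and at 0.28 in females without WT female cell 7.

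The fit over both sexes, edgeR's quasi-likelihood test with sex as a term, covered 101 of the members, 13 mitochondrial and 88 nuclear. It called 0 of them at a Benjamini-Hochberg adjusted p under 0.05, and 0 reached an unadjusted p under 0.05. Over all 16435 genes tested 0% were called and 3.5% had such an unadjusted p. DESeq2 called 0 members, with 1 member at an unadjusted p under 0.05, while 4.05% of all genes passed its adjusted threshold. The 8 members that were not tested had too few counts. On simulated counts the edgeR fit recovered 0% of 4-fold and of 16-fold changes. Every simulated gene had the same coefficient of variation, 0.96, near the common value over all genes tested. The SE of the log2 fold change differed between members, from 0.25 for mt-Co3 to 6.21 for Cox6b2. The simulation therefore does not show what size of change could be called for a given member.

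Few members lay past 2-fold within a sex. In females 6 members were at least 2-fold higher in Mut (background 23.1% of genes tested) and 5 at least 2-fold lower (background 18.2%), 10.9% of the 101 against 41.4% of all genes in either direction. In males 3 members were at least 2-fold higher (background 16.7%) and 0 lower (background 17.4%), 2.97% against 34.1% of all genes in either direction. Among the 2237 genes with a mean of 100 CPM or more, 23.5% in females and 10.5% in males lay past 2-fold in either direction. No member lay past 2-fold the same way in both sexes, against 5.11% of genes for higher and 3.77% for lower. Among the 2237 genes of 100 CPM or more, only 24 were past it higher and 23 lower in both sexes. The absence of such members among 101 was therefore near the share of abundant genes.

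The signs of the sexes differed for most members. Of the 101, 22 had a ratio above 1 in females and in males, 18 a ratio under 1 in each, and 61 opposite signs. The same sign was thus held by 39.6% of the members, beside 50.2% of all genes tested and 49.0% of the genes of 100 CPM or more. The members' median log2 ratio was −0.29 in females and 0.20 in males, beside 0.02 and −0.02 for all genes tested and −0.23 and 0.16 for the genes of 100 CPM or more. With library totals in place of TMM the nuclear members split into 42 higher and 46 lower in females, against 28 and 60 with TMM, and the median of all genes moved by 0.14 in females. The mitochondrial members split into 2 higher and 11 lower in females and 9 higher and 4 lower in males with TMM, and the nuclear members into 66 higher and 22 lower in males. Beside these, 36.7% of the genes of 100 CPM or more were higher in Mut females and 63.0% in Mut males with TMM, and 51.3% in Mut females with library totals, so that the members leaned the way abundant genes did.

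**Figure D5:**
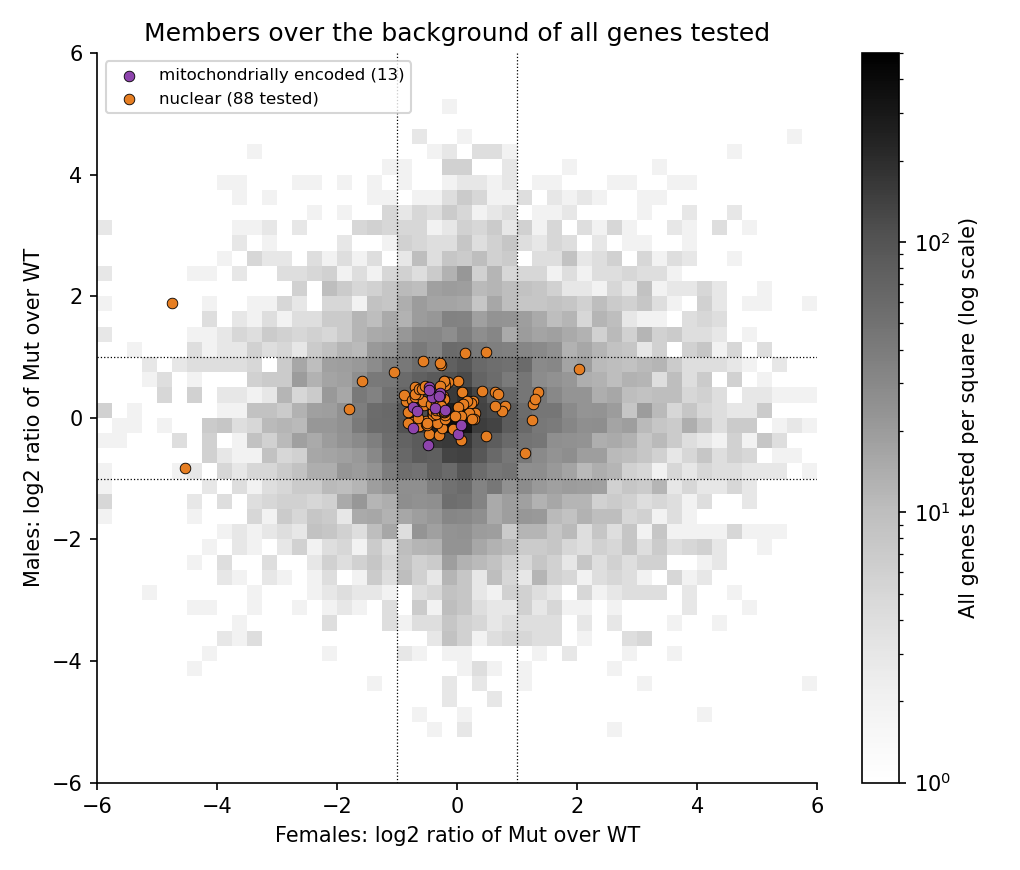
Log2 ratio of Mut over WT in females (x) and males (y) for the 13 mitochondrial and 88 nuclear members tested, over the number of all genes tested per square (grey, log scale); dotted lines mark 2-fold. The members gather near the centre, and Cox6b2 and Atp5s lie far to the left.

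Of the mitochondrial genes, mt-Cytb and mt-Nd6 were the 2 whose ratio had the same sign in both sexes. mt-Cytb had a lowest, median and highest value of 28.7, 1666 and 5902 CPM in Mut female cells against 332, 2113 and 4261 CPM in WT female cells. In males it had 30.3, 1712 and 6743 CPM in Mut cells against 661, 1912 and 6919 CPM in WT cells. The ranges overlapped in each sex, and the log2 fold change of the sums was −0.45 (SE 0.28, unadjusted p = 0.174 in edgeR, adjusted p = 1). mt-Nd6 had a log2 fold change of −0.48 (SE 0.45, unadjusted p = 0.337 in edgeR). Cells with mt-Nd6 at 10 CPM or more numbered 17 of 19 in Mut females and 13 of 15 in Mut males, and all 9 in WT females and all 19 in WT males. For mt-Co3, mt-Atp6 and mt-Nd1 the log2 fold changes were −0.04 (SE 0.25), 0.03 (SE 0.29) and −0.04 (SE 0.32).

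The member of smallest p was Atp5s, a factor related to the coupling part of ATP synthase, which was found at 10 CPM or more in 15 of the 62 cells. Of these, 5 were Mut (1 female, 4 male) and 10 were WT (3 female, 7 male). Its highest value was 113 CPM in Mut females, 103 CPM in Mut males, 862 CPM in WT females and 181 CPM in WT males, and its medians were 0.127, 0.438, 1.40 and 0.872 CPM in the same groups. Over both sexes the sums gave a log2 fold change of −2.81 (SE 1.37; unadjusted p = 0.0999 in edgeR, adjusted p = 1; adjusted p = 0.111 in DESeq2). Mut female cell 14 held 97.0% of the Mut female counts and WT female cell 7 held 78.0% of the WT female counts.

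Among complex I genes higher in Mut in both sexes, Ndufa9, an accessory subunit at the joint of the membrane and matrix arms, had a median of 191 CPM in Mut female against 6.86 CPM in WT female cells, and of 220 CPM in Mut male against 229 CPM in WT male cells. Cells with 10 CPM or more numbered 13 of 19 in Mut females and 4 of 9 in WT females. Its log2 fold change was 0.75 (SE 0.47, unadjusted p = 0.176 in edgeR). Ndufa2 stood at 0.79 (SE 0.47, p = 0.157 in edgeR), Ndufc2 at 0.53 (SE 0.34), Ndufs8 at 0.50 (SE 0.45) and Ndufv1 at 0.43 (SE 0.40). Ndufaf3, an assembly factor, stood at 1.47 (SE 0.91), with 94.1% of the WT female counts in WT female cell 5. In the other direction Uqcrc1 stood at −0.41 (SE 0.34), Sdhc at −0.45 (SE 0.49) and Atp5j2 at −0.39 (SE 0.37), and each of these ranges overlapped between genotypes.

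Among core subunits of complex I, Ndufs7 and Ndufs3 lay past 2-fold in females and within it in males. Ndufs7 had a lowest, median and highest value of 0.169, 130 and 472 CPM in Mut female cells against 2.06, 310 and 776 CPM in WT female cells, a log2 ratio of the sums of −1.59. In Mut male cells it had 2.49, 214 and 714 CPM, against 1.69, 144 and 701 CPM in WT male cells, a log2 ratio of 0.60. Ndufs3 had a median of 184 CPM in Mut female against 1.69 CPM in WT female cells and reached 10 CPM in 17 of 19 and 3 of 9 of them, a log2 ratio of 1.25. Its median was 169 CPM in Mut male cells against 198 CPM in WT male cells, a log2 ratio of −0.04 that ran from −0.23 to 0.06 without 1 cell, so that its sign in males depended on single cells. Whether the sexes differ was not tested. Without any single cell, Ndufs7 and Ndufs3 stayed past 2-fold in females, as did Ndufa9, Atp5s and Cox6b2. Ndufs3 and Ndufa9 did so narrowly, with lowest log2 ratios of 1.01 and 1.03. Atp5s and Cox6b2 reached 10 CPM in only 15 and 4 of the 62 cells. The other 6 members past 2-fold in females and all 3 in males lay within it without some cell. How many of all genes stay past 2-fold in this way was not computed.

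Over both sexes the log2 fold changes of abundant nuclear subunits were near 0, but those within a sex were larger and of opposite sign for several of them. Atp5b stood at 2127 CPM in the Mut female sum against 3125 CPM in the WT female sum, and at 2423 CPM in the Mut male sum against 2085 CPM in the WT male sum, log2 ratios of −0.55 and 0.22 and a log2 fold change over both sexes of −0.17 (SE 0.31). Atp5c1 stood at 561 CPM in the Mut female sum against 1014 CPM in the WT female sum, a log2 ratio of −0.85, and at a ratio of 0.28 in males. The female log2 ratio was −0.71 for Cox5a and −0.66 for Atp5g1, whose male ratios were 0.50 and 0.39. Uqcrc1 had −0.74 in females and −0.07 in males. Without WT female cell 9 the female ratios of Atp5c1 and Uqcrc1 were −0.51 and −0.11, and without WT female cell 1 that of Atp5g1 was −0.38. Cox4i1 had a log2 fold change over both sexes of −0.13 (SE 0.30) and Atp5a1 one of −0.16 (SE 0.27). Ndufs1, a core subunit of low level, stood at −0.01 (SE 0.43). Markers of other cell types moved between the groups beside these values: the 17 pyramidal markers, all of which had counts in each group, summed to 90.9 to 2131 CPM in Mut female and 62.1 to 2955 CPM in Mut male cells, against 345 to 3327 CPM in WT female and 157 to 4430 CPM in WT male cells. The 12 astrocyte and radial glia markers had a median sum of 484 CPM in Mut female against 212 CPM in WT female cells, and of 158 CPM in Mut male against 547 CPM in WT male cells. The 17 interneuron markers had one of 4366 CPM in Mut female against 3705 CPM in WT female cells, and of 4506 CPM in Mut male against 2773 CPM in WT male cells. The part of these markers in the ratios was not tested. Leaving out the 19 cells with many markers of another cell type (Mut: 6 female, 3 male; WT: 1 female, 9 male) gave log2 ratios of −0.51 and −0.20 for the mitochondrial and nuclear sums in females and 0.09 and 0.11 in males.

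Genes around the respiratory chain were described by lists, and 0 genes of any of the 8 lists passed the edgeR test. Of 42 assembly factors of all complexes, 0 had an unadjusted p under 0.05; the median log2 ratio was −0.42 in females and 0.20 in males. The 16 genes that transcribe and copy mitochondrial DNA had medians of −0.05 and 0.19, with Tfam, which packages that DNA, at a log2 fold change of −0.27 (SE 0.82). The 11 tested regulators of mitochondrial biogenesis had medians of −0.39 and −0.55, with Ppargc1a, a coactivator of the pathway, at −0.77 (SE 0.57) and Nrf1 at −0.76 (SE 1.61). The 20 genes of the tricarboxylic acid cycle had medians of 0.02 and 0.24, with 1 gene, pyruvate carboxylase (Pcx), at an unadjusted p under 0.05 in edgeR. The 17 genes of glycolysis had medians of −0.38 and 0.21, the 19 mobile carriers and other electron entry genes 0.05 and 0.18, the 12 of antioxidant defence 0.22 and 0.59, and the 16 of import and the outer membrane −0.45 and 0.28. For the genes of 100 CPM or more these medians were −0.23 and 0.16.

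The cells marked as contaminated carried 10 or 11 of 11 microglial markers, whose sum was 3118 CPM in the female cell and 10160 to 12517 CPM in the 4 male cells, against a median of 9.35 CPM in clean WT female and 14.04 CPM in clean WT male cells. Some cells with no such mark also carried many of these markers: Mut female cell 20 had 8 of them and 6757 CPM, WT female cell 6 had 9 and 787 CPM, and WT male cells 6 and 10 had 7 each. The nuclear respiratory chain sums were 14470 to 17483 CPM in the 4 contaminated males, against 17486 to 42667 CPM in the 19 clean WT males. These ranges all but met. The contaminated female cell stood at 23602 CPM, inside the clean WT female range of 16950 to 39956 CPM. By complex the nuclear sums of the males overlapped. Below the highest contaminated male cell lay 5 of 19 clean cells for complex I, 9 for II, 3 for III, 3 for IV and 2 for V. The mitochondrial sums did overlap, at 9232 to 26496 CPM in contaminated against 5084 to 47121 CPM in clean WT males. Scaled by library totals, 80 of 88 nuclear members were lower in the contaminated male sum (background 60.7% of genes). Their median log2 ratio was −0.67 beside −0.26 for all genes. At least 2-fold lower were 23 of the 88, a share under the background of 30.2%. The values of abundant genes alone were not computed for this comparison. The nuclear core subunits of complex I stood at 627 CPM in contaminated against 1471 CPM in clean WT males, a log2 ratio of −1.23, and complex IV at 3499.6 against 5123 CPM, a ratio of −0.55. In libraries that mix cell types, less material of the neuron and less RNA of these genes in it cannot be told apart, and the part of the microglial transcripts in these ratios was not tested.

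The 9 cells that the authors left out had 899625 to 6253603 counts. Their mitochondrial sums lay between 1909 and 19141 CPM except in Mut female cell 12, where the 13 genes held 163665 CPM, 8.32 times the nuclear sum of 19679 CPM. In that cell mt-Cytb alone held 35049 CPM and the 3 mitochondrial subunits of complex IV 77652 CPM, above every one of the 62 cells compared. With the 9 cells added to their groups, the female log2 ratio of Mut over WT was 0.26 for the mitochondrial and −0.34 for the nuclear sum.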

How the data were processed

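Single cells were sequenced from Nextera XT libraries, per the labels' protocols. Per the submitters' processing notes the authors quantified reads with kallisto on GRCm38; versions and the filter's criteria are not given in the sources used here. The deposited count tables hold estimated counts per gene, before and after the authors' filter, and the deposited normalized table holds TPM. Columns of other samples (44 after and 52 before the filter) were not used. Counts were summed over cells by genotype and sex and rounded. edgeR 4.0.16 (glmQLFit, glmQLFTest, sex as covariate, filterByExpr with minimum count 10, TMM factors 1.04 for Mut female, 1.02 for Mut male, 0.865 for WT female and 1.09 for WT male) tested 16435 genes with 1 residual degree of freedom and a biological coefficient of variation of 0.958; Benjamini-Hochberg adjusted p-values were read at 0.05. The fit was tested on simulated data: at a coefficient of 0.1 it recovered 100% of 4-fold changes. Ratios of Mut over WT within a sex used TMM-scaled CPM, with a pseudocount of 1 CPM for single genes and none for summed parts. Ratios of contaminated over clean cells used library totals without TMM, with the same pseudocount for single genes. DESeq2 1.42.0, other scalings, filters and sets of cells were alternatives. Intervals are 95% and, like the floor of 3 counts, cover counting error only, since amplified reads that carry no molecular identifier do not count molecules. No genotype and sex has more than 1 sum, so p-values do not measure a spread between replicates. The 1 residual degree of freedom is the difference of the genotype ratio between the sexes, which the fit moderates over genes. A gene whose ratio differs between the sexes therefore tends to a larger p. The summed cells may also share animals.

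The members, the other gene lists and the rule for named genes (all mitochondrial members, fixed core subunits and isoforms, the 3 highest nuclear members of each complex, up to 6 members a direction of smallest p with the same sign in both sexes) were chosen with earlier results of these data known; further members were named after their values were seen. Copies of mitochondrial genes were found with BLAST 2.17.0 in GENCODE M21 transcripts, and promoters came from RefSeq.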

Additional observations from a re-analysis of the deposited data

Results flagged for a closer look

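Among the 9 WT female cells, WT female cell 7 stood apart in the summed assembly factors of complex I, at 1672 CPM against 4.56 to 520 CPM in the other cells of the group; Ndufaf4 held most of it, with 1670 CPM. WT female cell 5 stood apart in mitochondrial counts per nuclear count, at 1.23 against 0.0759 to 0.630 in the other cells. These were 2 flags among 28 groups of 4 to 10 cells examined, and chance flags about 1 group in 20.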

How the results depend on the processing

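No member was called under any alternative run that kept every sum. These were DESeq2, median-of-ratios size factors, library totals, no filter and no sex term. Further runs added contaminated or left-out cells, or left out cells with other markers or each of the 62 cells. Without any 1 cell, 0 members reached an unadjusted p under 0.05 in edgeR. In each of these edgeR runs 0 of all genes tested were called as well. The 0 members in edgeR therefore do not measure how stable the result is. DESeq2 called 4.05% of all genes. The log2 ratios of the summed parts depended on the processing. The ratios are those of the mitochondrial sum in females and in males and of the nuclear sum in females and in males, beside −0.35, 0.13, −0.31 and 0.21 as reported. They were −0.37, 0.16, −0.34 and 0.23 with median-of-ratios size factors, −0.080, 0.035, −0.042 and 0.11 with library totals, −0.020, 0.071, 0.038 and 0.11 from the deposited TPM, 0.055, 0.0093, 0.020 and 0.068 as means over cells of CPM, and 0.23, −0.20, 0.062 and 0.081 as medians over cells. They were −0.46, 0.17, −0.23 and 0.36 with contaminated cells added, and 0.26, 0.095, −0.34 and 0.16 with the cells left out by the authors added. With alternatives chosen after seeing the data they were −0.51, 0.091, −0.20 and 0.11 without cells with markers of other cell types, and −0.12, −0.016, −0.078 and 0.059 without Lars2 and Gm19220 in the totals. With the nuclear copies added the mitochondrial ratios were −0.30 and 0.094. Leaving out each cell gave −0.46 to −0.13 and −0.099 to 0.25 for the mitochondrial sum, the extremes without Mut female cell 6, WT female cell 1, Mut male cell 8 and WT male cell 6, and −0.36 to −0.17 and 0.084 to 0.28 for the nuclear sum. The cause was not tested. Members past 2-fold numbered 11 in females (9 to 13 without 1 cell) and 3 in males (1 to 5), and 1 in males with library totals. No paired analysis was possible because the columns carry no replicate numbers and each genotype and sex is 1 sum.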
